A study of Mus musculus with 2 samples.

Results

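The glucose transporter group comprised 10 genes of the carrier families Slc2a and Slc5a: Slc2a1, Slc2a2, Slc2a3, Slc2a4, Slc2a5, Slc5a1, Slc5a2, Slc5a8, Slc5a10 and Slc5a12. Their probe sets were taken by exact gene symbol, and they had 19 of the 45037 probe sets on the array that are not controls. A probe set is a group of short oligonucleotides read together for 1 transcript. The series names 18193 genes through probe sets with a single symbol. Each group was 1 Affymetrix Mouse Genome 430 2.0 array of RNA from glomeruli, the filtering units of the kidney, of male KK/Ta mice aged 20 weeks. Mice of the inbred KK/Ta strain become obese and diabetic. The HFD group had received a high-fat diet and the Chow group a normal fat diet. The labels name no genetic alteration in either group. The design text speaks of 3 mice, and the sources used here do not say whether RNA of several animals was pooled on an array.

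Neither diet has a replicate array, so no standard deviation, p-value or test is given. Every difference describes these RNA preparations. Each array's median signal, 42.3 units for HFD and 44.9 for Chow, served as a floor, since no detection calls were used here. A probe set above its floor on the HFD array only gives a lower bound, written "at least N-fold". Differences are HFD minus Chow, in log2 units, after each array was centred on its median, which added 0.083 to every difference relative to the deposited values. In bulk RNA, fewer cells of a type and less RNA per cell cannot be told apart.

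The podocyte genes Podxl (15316 units in HFD, 16261 in Chow) and Cdkn1c (14522 and 15025) marked the preparations as glomerular. All 8 podocyte markers with a probe set were above the floor, with a median difference of -0.019. Markers of other nephron parts were also present on both arrays. All 17 listed markers of the convoluted proximal tubule passed the floor on 1 array or both. The array's control probe sets for beta-actin were higher in HFD by 0.14 to 0.28, and its Gapdh controls by 0.20 to 0.28, so differences of that size stand no higher than these controls.

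Slc2a genes encode facilitative carriers (GLUT proteins), which let hexoses move down their concentration gradient. Slc5a genes encode sodium-coupled carriers, which use the sodium gradient kept by the sodium pump to move solutes uphill. In the kidney the apical sodium-glucose carriers of the proximal tubule recover filtered glucose, which then leaves the cell through a facilitative carrier on the basolateral side. The label of the group is broader than glucose: Slc2a5 is best known as a fructose carrier, Slc5a10 carries mannose and fructose, and Slc5a8 and Slc5a12 carry monocarboxylates such as lactate.

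Sodium-coupled and facilitative carriers stood mostly higher in HFD, and 1 gene, Slc5a10, by at least 2-fold. Of the 19 probe sets, 16 passed the floor, 13 of them on both arrays, and 3 were under it on both. Of the 16, 15 were higher in HFD and 1 was lower (13 and 3 without centring). The 3 above the floor on the HFD array only could only come out higher. Of the 13 above it on both, 12 were higher (10 without centring). With bounds taken at their value, the median difference was 0.53 (1.44-fold). Over all 23419 probe sets above the floor on at least 1 array the median was 0.038 (-0.045 without centring), and 56.6% were higher. At least 2-fold higher was 1 member probe set and at least 2-fold lower were 0, against 0.615% and 0.295% of all probe sets. At least 1.5-fold higher were 7 of the 16, against 3.66% of all probe sets, and 0 were at least 1.5-fold lower, against 2.58%. Of the 7, 1 (1415959_at of Slc2a4) was above the floor on the HFD array only. These shares describe the arrays, and probe sets of 1 gene are not independent.

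**Figure D1:**
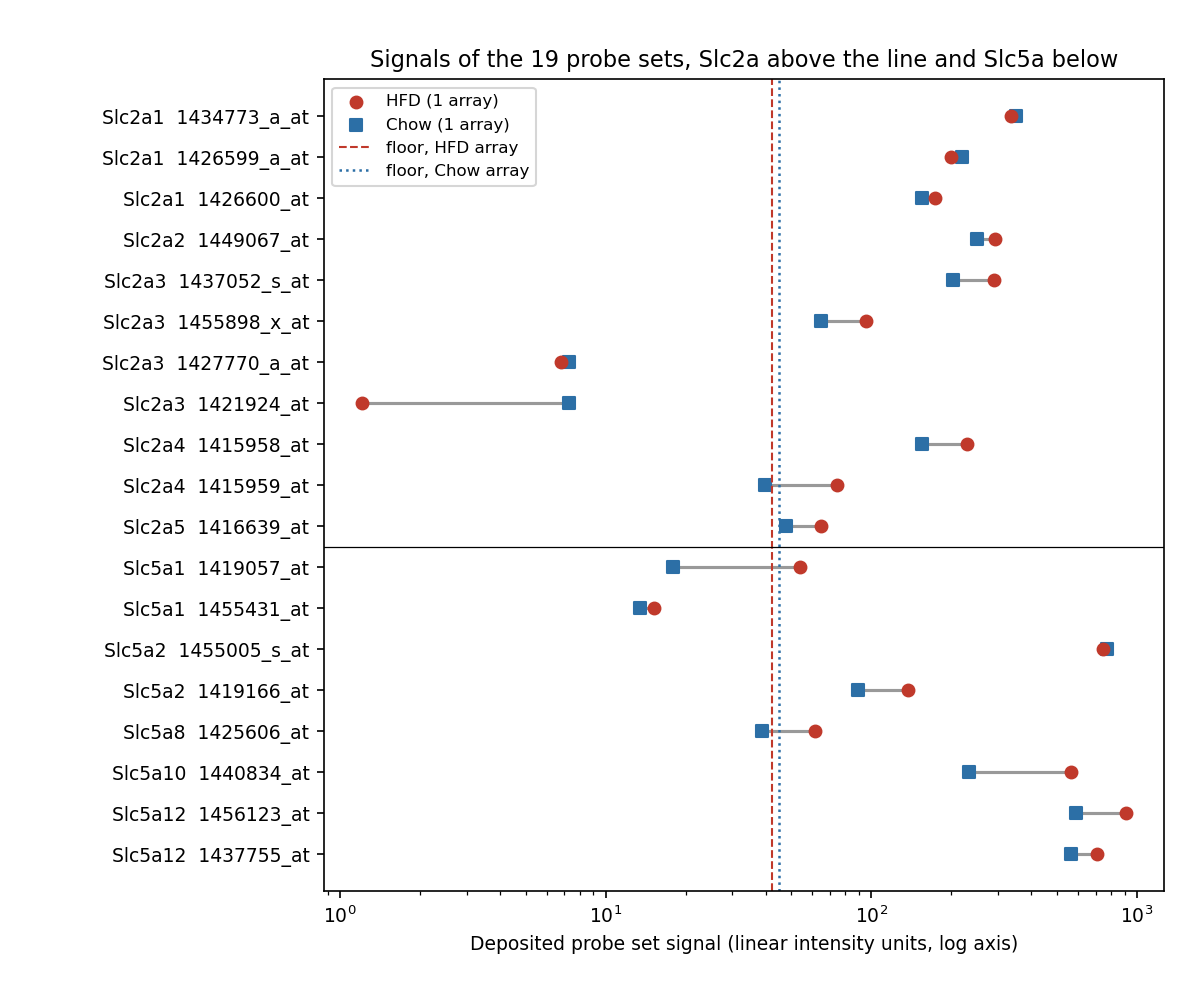
Deposited signal of each of the 19 probe sets on the HFD array (red circles) and the Chow array (blue squares), on a log axis in linear intensity units, with each array's floor as a vertical line. Slc5a10 has the widest gap among probe sets above both floors (566 against 233 units), while 2 of the 4 Slc2a3 probe sets and 1 of the 2 Slc5a1 probe sets lie left of both floors.

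Slc5a10 had the largest difference among the member probe sets above the floor on both arrays. Its single probe set (1440834_at) gave 566 units in HFD and 233 in Chow. The difference was 1.37, or 2.58-fold higher in HFD. Of all 21617 probe sets above the floor on both arrays, 33 had a larger positive difference. Among probe sets of like signal, taken as the same 10% band of mean signal over both arrays, the 5th and 95th percentile of the difference were -0.38 and 0.46. Slc5a10 encodes SGLT5, a carrier of the kidney. Fam83g, which overlaps the Slc5a10 gene in the RefSeq annotation, had probe sets under the floor on both arrays (6.92 and 4.58 units in HFD, 9.53 and 18.1 in Chow). The neighbouring genes Grap and Prpsap2 differed by -0.050 and 0.091. Neighbouring genes with a probe set above the floor thus lay near 0.

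The sequence before the gene start is given for Slc5a10, the member with the largest difference above both floors, and for Slc2a1, the member whose probe sets differed least. The windows are the 250 bases before each start in RefSeq on GRCm38.p6, written 5′ to 3′ in the direction of the gene. Windows of this length were matched for 6 of the 10 members, with 7 windows in all, because Slc5a10 has 2 starts. In the Slc5a10 windows (minus strand, chr11:61720800-61721049 and chr11:61719986-61720235) capitals mark the core letters of the hepatocyte nuclear factor 1 (HNF1) motif, GTTAAT, on either strand. In the Slc2a1 window (plus strand, chr4:119108495-119108744) capitals mark the core of the hypoxia-inducible factor motif, ACGTG, and the GC box, GGGCGG, on either strand.
Slc5a10, upstream start: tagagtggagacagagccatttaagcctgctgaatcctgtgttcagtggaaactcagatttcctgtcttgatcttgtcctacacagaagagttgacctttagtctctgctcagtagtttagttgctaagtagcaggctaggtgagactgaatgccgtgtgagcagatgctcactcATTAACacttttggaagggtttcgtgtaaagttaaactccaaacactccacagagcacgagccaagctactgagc
Slc5a10, downstream start: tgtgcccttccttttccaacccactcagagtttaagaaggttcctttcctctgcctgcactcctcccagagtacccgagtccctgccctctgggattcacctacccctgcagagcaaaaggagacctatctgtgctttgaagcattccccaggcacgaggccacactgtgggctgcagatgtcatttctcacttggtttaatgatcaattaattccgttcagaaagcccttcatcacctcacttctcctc
Slc2a1: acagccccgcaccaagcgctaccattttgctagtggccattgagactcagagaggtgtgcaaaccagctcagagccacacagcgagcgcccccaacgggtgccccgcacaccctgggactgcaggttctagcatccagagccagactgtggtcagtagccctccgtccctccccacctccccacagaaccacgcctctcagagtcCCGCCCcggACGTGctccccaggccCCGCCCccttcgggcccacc
The HNF1 core stood 75 bases before the upstream start of Slc5a10 and in 1 of the 7 member windows, against 6.43% of all 32851 windows. HNF1 proteins are transcription factors of liver and proximal tubule. The window of the downstream start held no match. The Slc2a1 window held 2 GC boxes, beginning 45 and 20 bases before the start, with the ACGTG core between them. The GC box stood in 3 of the 7 member windows against 32.7% of all, and the ACGTG core in 2 of 7 against 16.6%. The E-box CACGTG, which contains the ACGTG letters, stood in 1 of the 7, that of Slc5a1, against 6.02% of all. The G and C content was 45.6% and 51.2% in the Slc5a10 windows and 66.4% in that of Slc2a1. These matches are descriptions of letters and not of binding.

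The other sodium-coupled carriers were higher by smaller amounts or only as bounds. Slc5a12 encodes a low-affinity sodium-lactate carrier of the apical proximal tubule. Its probe set 1456123_at gave 909 units in HFD and 592 in Chow, a difference of 0.70 (1.63-fold). The other, 1437755_at, gave 710 and 567 units, a difference of 0.41 (1.33-fold). Both lay above the 95th percentile of probe sets of like signal, 0.39 and 0.41 respectively, the latter by a very small margin (0.4082 against 0.4071). The probe sets of Slc5a12 therefore went the same way and differed in size. Slc5a8, a high-affinity carrier of lactate and other monocarboxylates, gave 61.4 units in HFD and 38.7 in Chow, the latter under the floor. It was at least 1.45-fold higher.

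The probe sets of Slc5a2 disagreed. Slc5a2 encodes SGLT2, which takes up most filtered glucose in the convoluted proximal tubule. Probe set 1419166_at gave 137 units in HFD and 89.1 in Chow, a difference of 0.71 (1.63-fold), above the 95th percentile of 0.62 for like signals. Probe set 1455005_s_at gave 743 and 772 units, a difference of 0.029 (1.02-fold), near 0. The ending _s_at is the manufacturer's mark for probes that match more than 1 transcript, and the annotation lists no source sequence for this probe set. Rusf1, whose gene overlaps Slc5a2 in RefSeq, gave 111 and 66.9 units, a difference of 0.82 (1.76-fold). Tgfb1i1, the neighbour within 10000 bases, gave 696 and 725 units, a difference of 0.024. The difference of 1455005_s_at was near that of Tgfb1i1, but also near the median over all probe sets above the floor, 0.038. That of 1419166_at was nearer to that of Rusf1. Whether transcripts of the neighbours enter either Slc5a2 probe set was not tested.

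Slc5a1 was near or under the floor. It encodes SGLT1, the high-affinity glucose carrier of the straight proximal tubule and the intestine. Probe set 1419057_at gave 54.0 units in HFD and 17.9 in Chow, so it was at least 1.27-fold higher. Without a floor, or with the floor at the 30th percentile, the same values differ by 1.68 log2 units (3.20-fold), more than Slc5a10, at a Chow signal in the lower part of the array's range (35.4th percentile). Probe set 1455431_at gave 15.3 and 13.5 units, under the floor on both arrays, so the probe set above the floor has no second measurement above it.

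Over the Slc5a members, 7 of 8 probe sets passed the floor. All 7 were higher in HFD, but the lowest, 1455005_s_at of Slc5a2, turned from 0.029 to -0.054 without centring. The median was 0.54 (1.45-fold) and the highest value 1.37. Of the 5 above the floor on both arrays, 4 lay above the 95th percentile of like signals, a limit that 5% of such probe sets pass by construction.

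**Figure D2:**
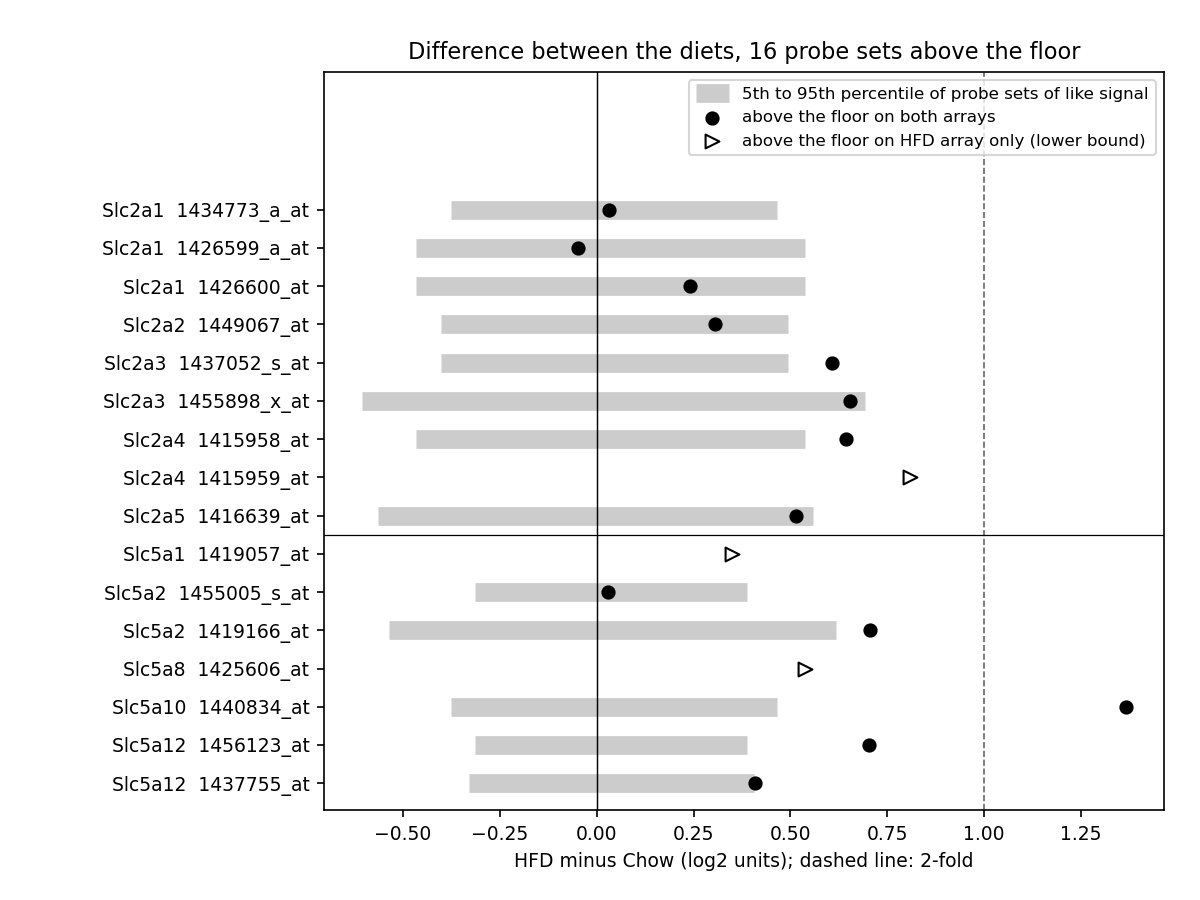
HFD minus Chow difference in log2 units for the 16 probe sets above the floor, with filled circles for those above it on both arrays, open triangles for lower bounds and grey bars for the 5th to 95th percentile of all probe sets in the same 10% band of mean signal. Slc5a10 alone lies right of the dashed 2-fold line, and the 3 Slc2a1 points lie inside their grey bars.

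Among the facilitative carriers, Slc2a4 and Slc2a3 were higher in HFD and Slc2a1 differed little. Slc2a4 encodes GLUT4, the insulin-responsive carrier of fat and muscle. Its probe set 1415958_at gave 229 units in HFD and 155 in Chow, a difference of 0.64 (1.56-fold), above the 95th percentile of 0.54 for like signals. The other, 1415959_at, gave 74.2 and 39.7 units and was at least 1.75-fold higher. Both were designed from the same database sequence and went the same way. With the floor at the 70th percentile the first was left as a bound of 0.30.

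Markers of adipocytes and of mesangial and smooth muscle cells were read beside Slc2a4. They do not cover every cell type that may carry GLUT4. Of the 5 adipocyte markers with a probe set, Adipoq (0.529 units in HFD, 7.73 in Chow), Lep, Cidec and Retn were under the floor on both arrays. Only Fabp4, which capillary endothelium also expresses, was above it (4549 and 4042 units, difference 0.25). The summed signal of the 5 was 4569 in HFD and 4067 in Chow. Of the 8 mesangial and smooth muscle markers with a probe set, 7 were above the floor, with a median of 0.077, and Cnn1 was under it. Their summed signal was 23057 and 22252. Of the 7, 4 were higher and 3 lower. The contractile genes Tagln (0.68) and Acta2 (0.53) were highest, whereas Myh11 (-0.13), Pdgfrb (-0.12) and Des (-0.016) were the lower ones. The part of these cells in the Slc2a4 difference was not tested.

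Slc2a3 was measured by 4 probe sets that did not give 1 picture. Slc2a3 encodes GLUT3, a high-affinity glucose carrier of neurons and leukocytes. Probe set 1437052_s_at gave 291 units in HFD and 202 in Chow, a difference of 0.61 (1.52-fold), above the 95th percentile of 0.49 for like signals. Probe set 1455898_x_at gave 95.8 and 64.6 units, a difference of 0.65 (1.57-fold), within its range of -0.61 to 0.69. These probe sets were designed from the same database sequence, and their endings mark probes that may match other transcripts. The remaining probe sets were under the floor on both arrays: 1427770_a_at gave 6.82 and 7.26 units, and 1421924_at gave 1.21 and 7.29. Both Slc2a3 differences thus rest on 1 source sequence with possible cross-matches.

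Myeloid transcripts, from cells known to use GLUT3, were also higher in HFD. Of 12 macrophage and myeloid markers, 11 were above the floor and all 11 were higher, with a median of 1.15 (2.22-fold). Cd68, C1qa, C1qb and C1qc were above the floor on the HFD array only, so they could only come out higher. The median is the bound of C1qb. It was 0.77 with the floor at the 70th percentile and 1.41 without a floor. At least 2-fold higher were 6, against 0.722% of the 11356 genes above the floor, and 0 were at least 2-fold lower, against 0.159%. Their summed signal was 3873 units in HFD and 2093 in Chow, and Itgam was under the floor on both. The part of these cells in the Slc2a3 difference was not tested.

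Slc2a1 stood within the scatter of the arrays. It encodes GLUT1, the widespread basal glucose carrier, which mesangial cells use. Probe set 1434773_a_at gave 337 units in HFD and 350 in Chow, a difference of 0.031. Probe set 1426599_a_at gave 199.8 units in HFD and 219 in Chow, a difference of -0.047. Probe set 1426600_at gave 173 and 155 units, a difference of 0.24 (1.18-fold). Each lay between the 5th and 95th percentile of like signals (-0.38 to 0.46 for the first, -0.47 to 0.54 for the others). Without centring the first turned to -0.053, so the sign of Slc2a1 depends on the probe set and the scaling.

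Slc2a2 and Slc2a5 were higher by amounts within the scatter. Slc2a2 encodes GLUT2, the low-affinity carrier on the basolateral side of the convoluted proximal tubule. It gave 292 units in HFD and 251 in Chow, a difference of 0.31 (1.24-fold), within -0.40 to 0.49 for like signals. Slc2a5, the GLUT5 fructose carrier, gave 64.6 and 47.9 units, a difference of 0.51 (1.43-fold), just under the 95th percentile of 0.56. Its Chow signal lay just above the floor.

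Over the Slc2a members, 9 of 11 probe sets passed the floor. Of these 8 were higher and 1 was lower (7 and 2 without centring), with a median of 0.51 (1.43-fold) and a range of -0.047 to 0.81. None was at least 2-fold higher, against 0.615% of all probe sets, and 4 were at least 1.5-fold higher, against 3.66%. Those 4 were of Slc2a3 and Slc2a4, with 1 source sequence for each gene. Of the 4, 1415959_at of Slc2a4 was above the floor on the HFD array only and could only come out higher. With bounds taken at their value, the Slc2a and Slc5a medians were 0.51 and 0.54 here. They were 0.30 and 0.56 with the floor at the 70th percentile, and 0.51 and 0.71 without a floor. No test of their difference is possible with these arrays.

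**Figure D3:**
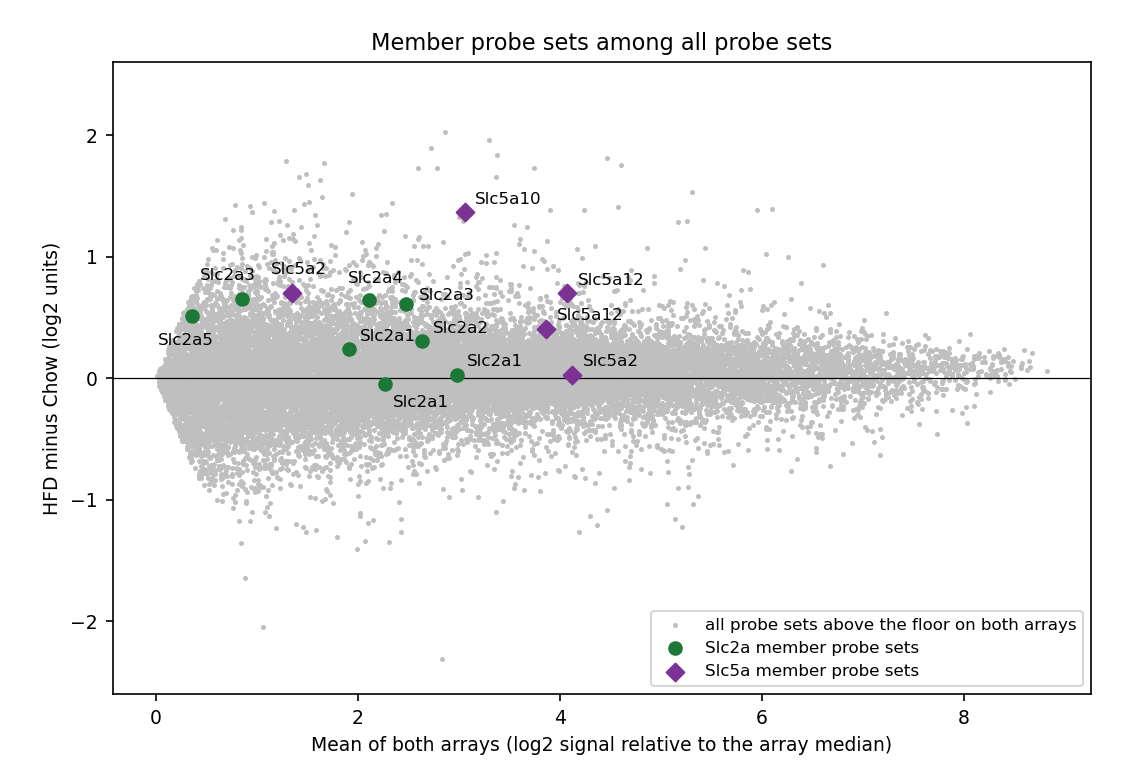
HFD minus Chow difference against the mean log2 signal of both arrays for all probe sets above the floor on both (grey), with Slc2a members as green circles and Slc5a members as purple diamonds. The wedge at the left edge is made by the floor; 12 of the 13 member probe sets lie above 0 (10 without centring), and Slc5a10 (1.37) lies farthest from it.

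Proximal tubule markers were higher in HFD by amounts in the range of the Slc5a members. Across both parts of that segment, 28 markers passed the floor, 26 of them were higher in HFD, and the median was 0.51 (1.43-fold). Of the 28, 2 (Ass1 and Cyp7b1) were above the floor on the HFD array only and could only come out higher. Over all probe sets above the floor, 56.6% were higher. The convoluted part had a median of 0.47, with all 17 of its markers above the floor and 16 of them higher. At least 2-fold higher was 1, Slc22a6, against 0.722% of the 11356 genes above the floor. The summed signal of the convoluted part was 10428 units in HFD and 7933 in Chow. Among its genes above both floors, the largest differences were those of the organic anion carrier Slc22a6 (308 and 141 units, 2.32-fold), the sodium bicarbonate carrier Slc4a4 (847 and 481 units, 1.86-fold) and the endocytic receptor Lrp2 (273 and 186 units, 1.56-fold).

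The straight part had a median of 0.70, with 11 of 12 markers above the floor, 10 of them higher, and Slc22a19 under it on both arrays. Its summed signal was 22198 and 17935 units, most of it from 1 gene, Cyp4b1 (12847 and 11809 units, 1.15-fold). The amino acid carrier genes Slc3a1 (277 and 140 units, 2.10-fold) and Slc1a1 (144 and 77.2 units, 1.98-fold) and Cyp2e1 (2239 and 1208 units, 1.96-fold) had the largest differences among its genes above both floors. The difference of Slc5a10 exceeded that of each of the 26 markers above both floors, of which the largest was 1.21. The other 2 were bounds: without a floor Ass1 (46.3 and 19.0 units) differed by 1.371 and Cyp7b1 (65.0 and 28.5 units) by 1.27, beside 1.366 for Slc5a10. The 1456123_at probe set of Slc5a12 was exceeded by 7 of the 28, with bounds taken at their value, as was 1419166_at of Slc5a2, and the Slc2a2 probe set by 19. The part of tubule RNA in the differences of the carriers was not tested.

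Markers of nephron segments beyond the proximal tubule were higher too. Of 12, 11 were above the floor and 10 of them higher, with a median of 0.64 and summed signals of 9054 and 6435 units. Scnn1b and Atp6v1b1 were above the floor on the HFD array only, so they could only come out higher. Scnn1g was under the floor on both. Endothelial markers had a median of 0.18, with 8 of 10 higher and summed signals of 48341 and 46401 units.

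Further members of both families lay nearer to 0 as a list. Of 14 further Slc2a and Slc5a genes with a probe set, 7 were above the floor, 5 of them higher and 2 lower, 0 by 2-fold, with a median of 0.070 (-0.013 without centring). The urate carrier Slc2a9 gave 142 units in HFD and 107 in Chow (1.41-fold), and Slc2a10 gave 81.5 and 65.6 (1.32-fold). Slc2a12, Slc2a8 and the proton-coupled inositol carrier Slc2a13 differed by 0.093, 0.070 and 0.039. Slc2a6, Slc5a4a, Slc5a4b, Slc5a5, Slc5a7, Slc5a9 and Slc5a11 were under the floor on both arrays.

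The sodium-coupled inositol carrier Slc5a3, which brings the osmolyte myo-inositol into cells, was lower in HFD in all 3 of its probe sets. Probe set 1435484_at gave 3529 units in HFD and 4406 in Chow, a difference of -0.24 (1.18-fold lower). Probe sets 1440227_at (425 and 604 units) and 1422170_at (55.5 and 86.2 units) differed by -0.42 and -0.55. Slc5a6, a vitamin carrier, gave 58.8 and 74.1 units, a difference of -0.25. These were the only 2 of the 7 genes above the floor that were lower.

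Genes that keep the sodium gradient or handle lactate stood higher, and regulators of the carriers had a median near 0. All 4 sodium gradient genes with a probe set were higher, with a median of 0.39 (0.15 with the floor at the 70th percentile). The sodium-proton exchanger Slc9a3 (135 and 69.8 units) was 2.05-fold, the sodium pump subunit Atp1b1 (3653 and 2504 units) 1.55-fold and the scaffold Slc9a3r1 1.11-fold higher. The differences of Slc9a3r1 (0.15) and of the pump regulator Fxyd2 (0.14) were no larger than those of the actin and Gapdh controls. Of 9 monocarboxylate and lactate genes above the floor, 8 were higher and 1 lower, with a median of 0.42. Slc16a1 (92.7 and 64.4 units), a proton-coupled lactate carrier, was 1.53-fold, Emb, an accessory protein of such carriers, 1.52-fold and Slc16a9 1.49-fold higher.

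Of 24 partners and regulators of glucose carriers, 15 were higher and 9 lower, 0 by 2-fold, with a median of 0.055 (-0.029 without centring). Pdzk1, a scaffold of apical carriers, was 1.47-fold higher (496 and 358 units), and the tubule transcription factor Hnf4a 1.44-fold (488 and 359 units). Irs2, an insulin receptor substrate, was 1.38-fold lower (124 and 182 units). Pdzk1ip1, named after its values were seen because its protein is an accessory subunit of SGLT2, was 1.22-fold lower (299 and 386 units). In the list named first steps of hexose use, 7 genes had a probe set. Above the floor were 3, with a median of 0.10: G6pc (1.31-fold), Khk (1.07-fold) and Hk1 (1.07-fold). Of these, G6pc encodes the enzyme that frees glucose from its phosphate, the reverse of the hexokinase step. Hk2, Hk3, Hkdc1 and Gckr were under the floor on both arrays.

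**Figure D4:**
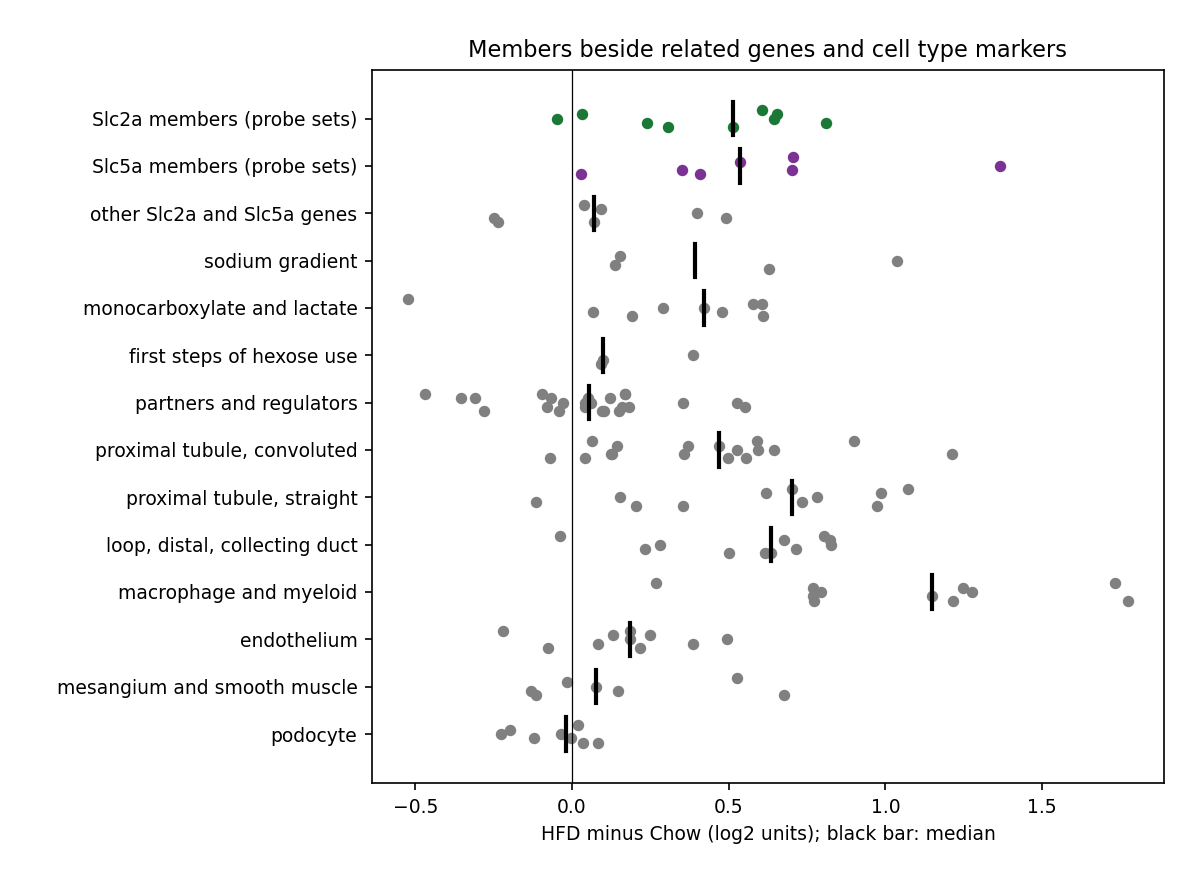
HFD minus Chow difference in log2 units for the member probe sets (green Slc2a, purple Slc5a) and for the genes of related pathways and cell type markers (grey), with black bars for medians. Lower bounds are drawn at their value. The members' medians (0.51 and 0.54) lie beside those of the convoluted and straight proximal tubule (0.47 and 0.70), but not beside these alone. The medians of markers of later nephron segments (0.64), monocarboxylate and lactate genes (0.42) and sodium gradient genes (0.39) also lie close by. Those of podocyte markers (-0.019), regulators (0.055) and other carriers (0.070) lie nearer to 0.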

How the data were processed

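RNA was amplified, biotin-labelled and hybridised, per the labels' protocols, and GeneSpring 7.3.1 served to compare the diets, per the series' design text. The authors deposited linear probe set intensity values, 1 column per array. For probe summarisation and scaling, the method is not given in the sources. Values ran from 0.0534 to 19489 (HFD) and 0.0539 to 19853 (Chow). The number of arrays limits the precision.

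Here 64 control probe sets were set aside. Each array was centred on its median, values were floored at the 50th percentile, and log2 differences were taken with Python 3.11.15 and pandas 2.3.3. Symbols came from the 2016 platform annotation. Lists used each gene's brightest probe set. Promoter windows were RefSeq GRCm38.p6. The procedure was tested on simulated data with large changes planted in bright probe sets only and little added noise. That test does not cover signals near the floor or the scatter of these arrays. The members and lists were chosen with earlier results of these data known. The rule named all members, further carriers above the floor, and the 3 largest differences of each pathway and proximal tubule list; other marker lists were named by their 2 brightest genes at most. Exceptions named after their values were seen: Pdzk1ip1, Fxyd2, Ass1, Cyp7b1, Cyp4b1, the mesangial and smooth muscle genes, the adipocyte markers, neighbouring genes, and markers under the floor. Further such exceptions, above the floor on the HFD array only, were Cd68, C1qa, C1qb, C1qc, Scnn1b and Atp6v1b1. Scaling, floor, threshold and probe set alternatives were run.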

Additional observations from a re-analysis of the deposited data

How the results depend on the processing

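No paired analysis was possible because each diet is represented by 1 array. An alternative was counted as moving a value when it shifted by over 0.23 log2 units, the scaled median absolute deviation of all probe sets above the floor on both arrays, or a count by over 1.5 times. Of 268 alternative values, 15 moved and 0 changed the sign of a 2-fold difference. Without centring, with quantile normalization and with loess (span 0.3), 13 member probe sets were higher and 3 lower, the added ones being 1434773_a_at of Slc2a1 and 1455005_s_at of Slc5a2. The count at least 2-fold higher was 2 with the floor at the 30th percentile, without a floor, and without a floor but with the 25th percentile added, the further probe set being 1419057_at of Slc5a1 (1.68, 1.68 and 1.29). It was 7 at a threshold of 1.5-fold and 0 at 3-fold. With the floor at the 70th percentile, 9 member probe sets were left and 8 were higher, and the red cell and lymphocyte lists had no gene left. Slc5a10 ran from 1.28 to 1.37 over the scaling and floor alternatives, the Slc2a median from 0.30 to 0.52 and the Slc5a median from 0.45 to 0.71. The myeloid median was 0.77 with the 70th percentile floor, 1.41 without a floor and 0.79 with the median over probe sets. The sodium gradient median was 0.15 with the 70th percentile floor, and the red cell median 0.58 with the 30th percentile floor; in the other alternatives that gave a value the latter ran from 0.26 to 0.41. The other-carrier, regulator and mesangial medians crossed 0 without centring, to -0.013, -0.029 and -0.0065. Signal over background limits Slc5a1, Slc5a8, Slc2a5 and 1415959_at of Slc2a4.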

Other observations

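Of the lymphocyte markers, 2 of 7 were above the floor, Ighm at 0.54 and Cd8a at -0.18, with summed signals of 164 units in HFD and 150 in Chow (150.4). Of 4 red cell markers with a probe set, 2 were above it: Hba-a2 differed by -0.25 and Alas2 by at least 0.94, with summed signals of 172 and 132 units.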
